A study of Mus musculus with 18 samples.

Results

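The subcortical maternal complex is a protein assembly that forms beneath the surface of growing oocytes and persists in the early embryo, where it is tied to the cytoplasmic lattices that store maternal proteins. Female mice that lack one of its core proteins ovulate oocytes whose embryos stop dividing during early cleavage, so the genes are known as maternal effect genes. Transcription of these genes belongs to oocyte growth, and the MII oocyte carries their RNA as a stored maternal pool. The 7 genes described here were *Ooep*, *Nlrp5*, *Tle6*, *Khdc3*, *Padi6*, *Nlrp2* and *Zbed3*. They were found by gene symbol among the 28252 genes with deposited TPM values, a level scaled by gene length and library size, and their read counts were found by Ensembl identifier among 53715 genes.

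RNA was sequenced from 18 mouse libraries in 6 groups of 3. All oocytes came from females of the strain C57Bl/6j x CBA/J, which are F1 hybrids, with the treatment given as none. In the *in vivo* group, oocytes from primordial and from primary follicles were cut by laser capture microdissection (LCM) from sections of ovaries removed at 14 days of age. In the *in vitro* group, ovaries were removed at 7 days and kept in culture for 7 days before the same follicle stages were cut out. *In vitro* MII oocytes came from follicles that were isolated after that ovary culture and grown for another 12 days in alginate beads, with hCG added to release the oocyte. *In vivo* MII oocytes came from adult females superovulated with gonadotrophins, so these groups differ in the age of the animal as well as in culture. The LCM tissue was fixed and embedded in paraffin, the RNA of several caps was pooled by stage, and the RNA was amplified before an exon capture library kit was used. Each MII library held 10 oocytes and was made by Smart-seq II from unfixed cells. Between LCM and MII oocytes, stage cannot be told apart from the way the library was made, and no test was run. The labels number the libraries of a group without saying whether they came from different animals, so p-values measure only the spread between these libraries, which may be technical.

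The LCM libraries held 15149564 to 29205503 counts and the MII libraries 7334817 to 9978830. Spearman correlations between libraries of a group lay between 0.483 and 0.776 for LCM oocytes and between 0.864 and 0.931 for MII oocytes. Of 13 oocyte markers, 8 had over 3 counts in each of the 12 LCM libraries, and none was at 0 in all of them. *Oosp1*, *Bmp15* and *Sohlh1* were at 0 in 6, 4 and 3 LCM libraries, and *Sohlh1* was at 0 in 5 of the 6 MII libraries. Markers of other ovarian cells were present in LCM libraries. The summed TPM of 11 theca and stroma markers was 455 to 30457 in LCM libraries and 1.44 to 8.06 in MII libraries, and that of 12 granulosa markers was 24.4 to 2421 and 30.5 to 76.5. Of 9 markers of blood, endothelium and immune cells, *Ptprc* and *Adgre1* were at 0 in all 18 libraries, and the sum was 0 to 7508 TPM in LCM libraries. Of 4 cumulus cell markers, *Ptx3* was at 0 throughout, and their sum did not exceed 2.32 TPM. The second primordial library *in vitro* stood apart from the other two of its group. Its counts of *Khdc3*, *Nlrp2* and *Zar1*, an oocyte RNA-binding protein gene, were 170, 33 and 2819, above those of all 6 libraries of primary follicles, and the other primordial libraries held at most 20, 0 and 68. Its label was taken as given. Fold changes between stages *in vitro* and between growth groups at the primordial stage are also given without it. For the difference between the effects of culture, only ranges over leaving out each library are given, where a sign changed. Correlations, the genes most alike and shares of a sum include it. In bulk libraries of this kind, fewer oocytes in a sample and less RNA of a gene per oocyte cannot be told apart.

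The 7 genes lie on 5 chromosomes, with *Nlrp5* and *Nlrp2* both on chromosome 7 and *Ooep* and *Khdc3* both on chromosome 9 (GRCm38). The 250 bases before the RefSeq start were searched on both strands for the E-box CANNTG, which helix-loop-helix factors of the oocyte such as FIGLA and SOHLH1 can bind, and for TAATTA or TAATTG, the core recognised by homeobox factors such as NOBOX. An E-box occurred before 6 of the 7 genes, *Nlrp2* being the exception, and before 66.2% of 32851 RefSeq promoter windows of this length. TAATTA or TAATTG occurred before *Ooep* and *Nlrp5* and before 11.3% of all windows. The form CAGCTG of the E-box occurred before *Nlrp5* and *Padi6* and before 13.0% of all windows, whereas CACGTG occurred before *Tle6* and before 6.02%. The motif TATAAA occurred before none of the 7 and before 12.4%. The windows of *Nlrp5*, *Padi6* and *Zbed3* hold no base of an annotated exon and are shown, and each reads 5′ to 3′ on the strand of its gene. Capitals mark E-boxes and TAATTA, and the sequences are those of RefSeq on GRCm38.p6. A match is a description of letters in the window and not a binding site.
Nlrp5, chr7:23385639-23385888, plus strand: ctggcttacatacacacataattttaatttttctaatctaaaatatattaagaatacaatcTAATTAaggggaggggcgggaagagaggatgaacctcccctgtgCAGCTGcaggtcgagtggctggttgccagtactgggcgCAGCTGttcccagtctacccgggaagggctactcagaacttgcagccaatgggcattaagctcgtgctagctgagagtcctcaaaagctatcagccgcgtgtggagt
Padi6, chr4:140742644-140742893, minus strand: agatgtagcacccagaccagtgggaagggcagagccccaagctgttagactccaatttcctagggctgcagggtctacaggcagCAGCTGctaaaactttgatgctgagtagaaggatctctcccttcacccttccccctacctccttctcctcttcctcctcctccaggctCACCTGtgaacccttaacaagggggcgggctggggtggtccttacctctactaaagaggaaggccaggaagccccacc
Zbed3, chr13:95323355-95323604, plus strand: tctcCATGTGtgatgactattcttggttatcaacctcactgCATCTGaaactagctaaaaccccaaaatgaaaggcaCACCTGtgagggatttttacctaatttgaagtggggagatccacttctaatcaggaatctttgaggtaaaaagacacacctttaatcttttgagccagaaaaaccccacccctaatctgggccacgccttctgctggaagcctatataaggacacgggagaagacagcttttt

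*Ooep*, *Nlrp5* and *Tle6* encode the scaffold of the complex. *Ooep* (ENSMUSG00000032346, chromosome 9, 78376109 to 78378725, minus strand), a protein with a KH-like domain, was at 3.74, 1.92 and 0.634 TPM in oocytes from primordial follicles *in vivo* and at 3.27, 6.54 and 1.60 TPM *in vitro*. In oocytes from primary follicles it was at 0.875, 1.09 and 5.66 TPM *in vivo* and at 3.66, 3.96 and 4.95 TPM *in vitro*. The ranges of these 4 groups overlapped. MII oocytes held 13.95, 161 and 89.0 TPM *in vivo* and 32.9, 97.1 and 130 TPM *in vitro*, so that the libraries of the *in vivo* group enclosed all 3 of the *in vitro* group.

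*Nlrp5* (ENSMUSG00000015721, chromosome 7, 23385889 to 23441922, plus strand), also called *Mater*, the NLR family protein at the centre of the complex, was at 20.2, 7.69 and 5.09 TPM in oocytes from primordial follicles *in vivo* and at 2.06, 39.5 and 8.01 TPM *in vitro*. Oocytes from primary follicles held 8.43, 6.53 and 41.5 TPM *in vivo* and 18.7, 14.8 and 12.3 TPM *in vitro*. The second *in vitro* library of the primordial stage and the third *in vivo* library of the primary stage were the high ones, and the *in vitro* primary group had the narrowest range. In MII oocytes the levels were 180, 146 and 140 TPM *in vivo* and 62.4, 371 and 255 TPM *in vitro*, and the *in vitro* values lay on both sides of the *in vivo* group. A miRNA gene annotated inside *Nlrp5* shares no exonic base with it.

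*Tle6* (ENSMUSG00000034758, chromosome 10, 81590904 to 81601073, minus strand), a relative of the Groucho co-repressors that acts in the complex, was at 3.96, 4.32 and 3.12 TPM in oocytes from primordial follicles *in vivo* and at 3.02, 12.6 and 1.71 TPM *in vitro*. Oocytes from primary follicles held 4.75, 6.74 and 15.2 TPM *in vivo* and 8.62, 5.95 and 6.93 TPM *in vitro*. The *in vivo* primordial libraries all lay below the *in vivo* primary libraries. MII oocytes held 138, 278 and 205 TPM *in vivo* and 131, 191 and 172 TPM *in vitro*. *Tle6* had the smallest spread within groups of the 7 genes in both kinds of library, with a within-group SD of log2 CPM, the count scaled by library size with TMM, of 0.79 in LCM and 0.27 in MII oocytes.

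*Khdc3* (ENSMUSG00000092622, chromosome 9, 73101836 to 73104438, plus strand), also called *Filia*, a KH domain protein that joins the scaffold, had no read in the 3 libraries of primordial follicles *in vivo*. In oocytes from primordial follicles *in vitro* it had 0, 170 and 20 counts. Oocytes from primary follicles held 10, 18 and 31 counts *in vivo* and 52, 22 and 54 counts *in vitro*, so that all 6 primary libraries had counts above 3. MII oocytes held 18.3, 13.7 and 7.50 TPM *in vivo* and 56.7, 5.12 and 27.8 TPM *in vitro*. The *in vitro* MII libraries spanned both the lowest and the highest level. The gene *Gm20509* lies on the same strand and shares 790 exonic bases, or 38.5% of those of *Khdc3*, so counts of both are uncertain. The ratio of *Khdc3* to *Gm20509* counts lay between 0.804 and 1.08 in MII libraries but varied widely in LCM libraries, from 0.217 to 2.07 in primary follicles *in vivo*, from 0.0705 to 1 in primary follicles *in vitro* and from 0 to 0.0941 in primordial follicles *in vitro*. Of the primordial libraries *in vivo*, the second held 653 counts of *Gm20509* and 0 of *Khdc3*, and the others held none of either.

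*Padi6* (ENSMUSG00000040935, chromosome 4, 140727355 to 140742643, minus strand), a member of the peptidylarginine deiminase family required for the lattices, was at 23.8, 15.5 and 4.93 TPM in oocytes from primordial follicles *in vivo* and at 3.60, 53.6 and 8.40 TPM *in vitro*. Oocytes from primary follicles held 51.8, 31.3 and 104 TPM *in vivo* and 35.3, 37.3 and 26.7 TPM *in vitro*. All 3 *in vivo* primary libraries were above all 3 *in vivo* primordial libraries. MII oocytes held 287, 850 and 552 TPM *in vivo* and 152, 584 and 286 TPM *in vitro*, and these ranges overlapped.

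*Nlrp2* (ENSMUSG00000035177, chromosome 7, 5298547 to 5351035, minus strand), a further NLR family protein of the complex, had no read in 7 of the 12 LCM libraries. The 3 libraries of primordial follicles *in vivo* were all at 0, and *in vitro* the counts were 0, 33 and 0. Oocytes from primary follicles held 0, 0 and 12 counts *in vivo* and 20, 16 and 16 counts *in vitro*. The *in vitro* primary group was thus the one LCM group with *Nlrp2* above 3 counts in every library. MII oocytes held 136, 68.4 and 82.1 TPM *in vivo* and 11.7, 134 and 102.8 TPM *in vitro*, the first *in vitro* library being far below the other 5. *Gm5065* overlaps *Nlrp2* on the opposite strand without a shared exonic base, and a processed pseudogene on the opposite strand shares 105 bases.

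*Zbed3* (ENSMUSG00000041995, chromosome 13, 95323612 to 95337841, plus strand), a zinc finger protein reported to bind the complex, was at 8.28, 13.6 and 1.34 TPM in oocytes from primordial follicles *in vivo* and at 0.0950, 42.3 and 2.92 TPM *in vitro*. The value of 0.0950 TPM rests on 1 count. Oocytes from primary follicles held 23.1, 10.99 and 51.3 TPM *in vivo* and 41.001, 22.1 and 40.1 TPM *in vitro*. In MII oocytes *Zbed3* stood at 29017.5, 12510.5 and 17173.5 TPM *in vivo* and at 34839, 28707 and 26845 TPM *in vitro*. It ranked between place 1 and place 7 of all genes by TPM in the 6 MII libraries and took 1.13% to 3.43% of their counts, whereas the most it took in an LCM library was 0.00318%. Both snoRNA genes annotated inside *Zbed3* share no exonic base with it.

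**Figure D1:**
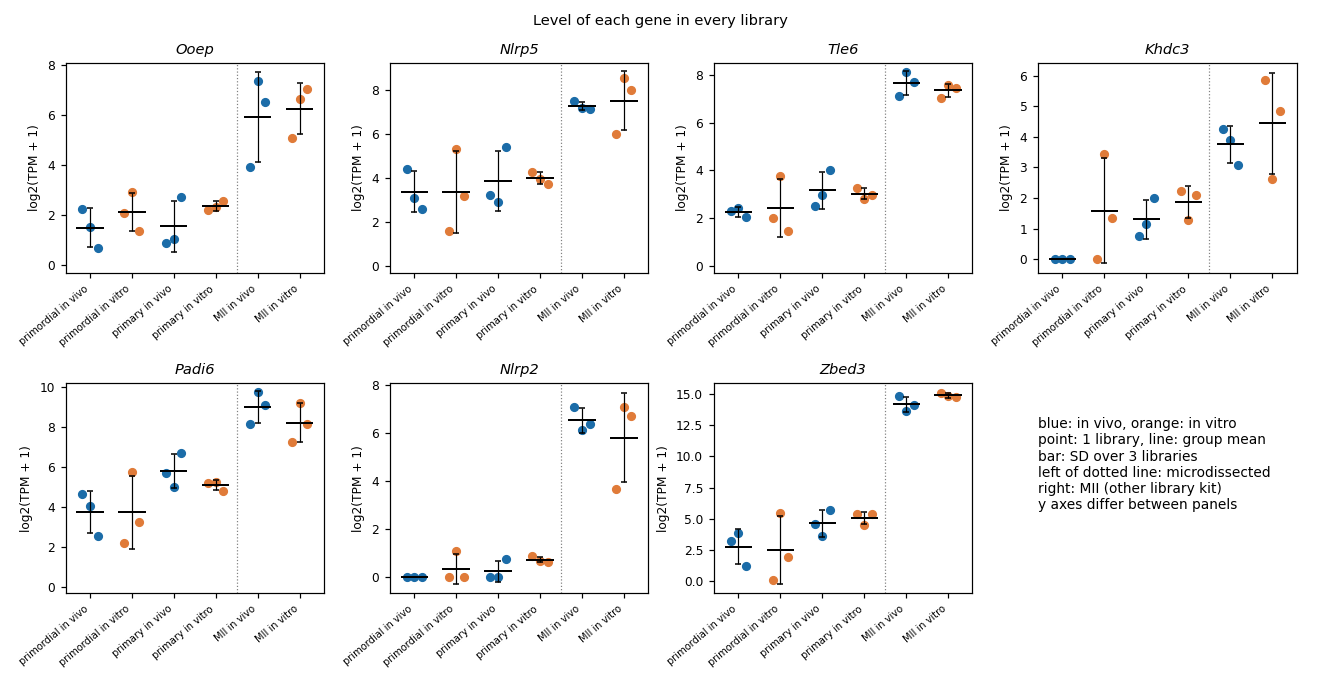
Level of the 7 genes on the log2(TPM + 1) scale in every library, by group (blue *in vivo*, orange *in vitro*), with the group mean and SD of 3 libraries. MII libraries stand right of the dotted line, and *Khdc3* is at 0 in all 3 libraries of primordial follicles *in vivo*.

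Levels were compared between genes in TPM only, with the gene lengths used by the authors not given. In LCM oocytes the order of the medians was *Padi6* at 28.99 TPM, *Zbed3* at 17.9, *Nlrp5* at 10.4, *Tle6* at 5.35, *Ooep* at 3.46, *Khdc3* at 1.31 and *Nlrp2* at 0. No neighbours in this order had ranges that did not overlap over the 12 libraries, but *Tle6* was above *Ooep* in 11 of 12 and *Padi6* above *Zbed3* in 10 of 12. In MII oocytes the order was *Zbed3* at 27776 TPM, *Padi6* at 419, *Tle6* at 181, *Nlrp5* at 163, *Ooep* at 93.1, *Nlrp2* at 92.4 and *Khdc3* at 16.0. *Zbed3* was the one gene whose range did not overlap that of its neighbour, *Padi6* was above *Tle6* in 6 of 6 libraries, and *Tle6* was above *Nlrp5* in 3 of 6. *Zbed3* moved from second place among LCM oocytes to first among MII oocytes, and *Khdc3* was in sixth and last place.

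For 6 of the 7 genes, *Khdc3* being the exception, the lowest of the 6 MII libraries was above the highest of the 12 LCM libraries. Of 25701 genes above 0 in some library, 16.1% had this pattern. The ratio of the lowest MII to the highest LCM level was 1.46 for *Padi6*, 1.503 for *Nlrp5*, 2.13 for *Ooep*, 8.62 for *Tle6*, 10.6 for *Nlrp2* and 244 for *Zbed3*. Medians differed 12.2-fold for *Khdc3*, 14.5-fold for *Padi6*, 15.8-fold for *Nlrp5*, 26.9-fold for *Ooep* and 33.8-fold for *Tle6*, against 1556-fold for *Zbed3*. The summed level of the 6 genes other than *Zbed3* was 11.9 to 170 TPM in LCM libraries and 447 to 1518 TPM in MII libraries. Oocyte markers summed to 359 to 1931 TPM in LCM libraries and to 10367 to 20893 TPM in MII libraries. The markers of theca and stroma moved the other way, and the part of cell mixture and library kit in these values cannot be told apart from stage.

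**Figure D2:**
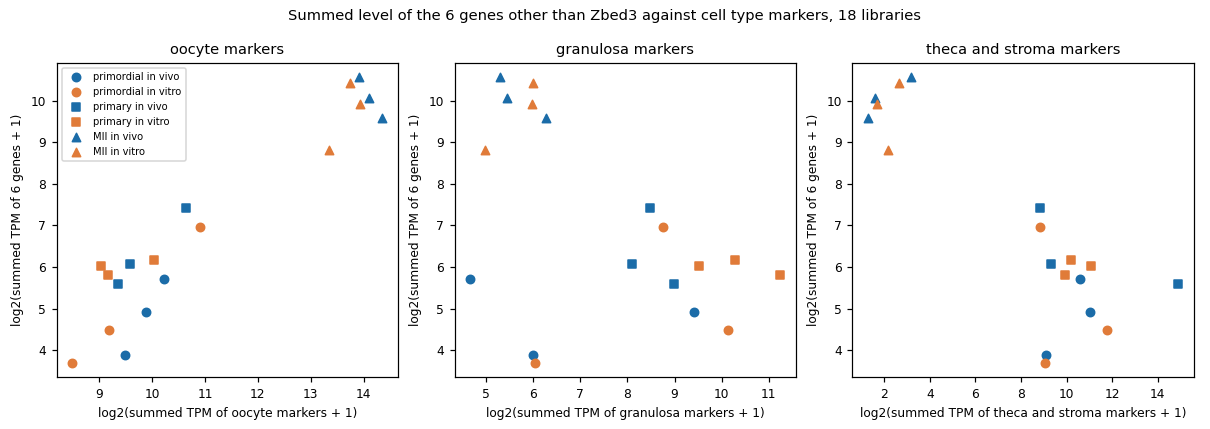
Summed TPM of the 6 genes other than *Zbed3* against summed TPM of oocyte, granulosa and theca and stroma markers, on log2(TPM + 1) axes, 1 symbol per library (circles primordial, squares primary, triangles MII, blue *in vivo*, orange *in vitro*). The 6 MII libraries are apart from the 12 LCM libraries, with theca and stroma markers at 1.44 to 8.06 TPM.

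Detection in the LCM libraries differed between members. *Ooep*, *Nlrp5*, *Tle6* and *Padi6* had over 3 counts in all 12 libraries, *Zbed3* in 11, *Khdc3* in 8 and *Nlrp2* in 5. Of the 15317 genes tested, 12.2% had over 3 counts in all 12. Of the 6840 genes whose LCM total lay within the range of the 7 members, 97 to 6836 counts, 2.79% did. The lower end of this range is *Nlrp2*, whereas *Ooep*, *Nlrp5*, *Tle6* and *Padi6* had totals of 563 to 6836 counts. The share among genes of that narrower range was not counted. The within-group SD of log2 CPM lay between 0.79 for *Tle6* and 2.10 for *Zbed3*. Its median over genes above 1 CPM in at least 6 LCM libraries was 3.27, a filter that *Khdc3* and *Nlrp2* did not pass. The floor of 3 counts corresponded to 0.0930 to 0.216 CPM. This floor covers counting error only. The intervals of log2 fold changes given below come from the fitted models and include the spread between libraries.

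The transition from primordial to primary follicle was compared within each growth group. *In vivo*, all 7 genes had a fitted log2 fold change above 0, with a median of 2.04 against 0 over all genes tested, and none was called. Here and in the later LCM comparisons, the median over all genes includes, at 0, genes without a read in either group compared. A gene was called where its Benjamini-Hochberg adjusted p from the quasi-likelihood test of edgeR was under 0.05 and its fold at least 2, which held for 0.0522% of 15317 genes. One gene, *Khdc3*, had an unadjusted p under 0.05, as did 11.2% of all genes, and DESeq2 called *Khdc3* and 3.64% of all genes. *Padi6* had 17.8, 10.3 and 4.80 CPM in oocytes from primordial follicles and 53.2, 23.2 and 73.4 CPM in those from primary follicles. The means were 10.95 ± 6.52 and 49.9 ± 25.2 CPM (SD, n = 3), a ratio of 4.56. The log2 fold change was 2.19 (95% interval -3.93 to 8.31), with an adjusted p = 0.875 (edgeR, quasi-likelihood).

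*Tle6* was at 3.60, 3.49 and 3.70 CPM in oocytes from primordial follicles and at 5.95, 6.10 and 13.1 CPM in those from primary follicles. The 3 primary libraries were all above the primordial ones, with means of 8.38 ± 4.08 and 3.60 ± 0.109 CPM (SD, n = 3) and a log2 fold change of 1.22 (95% interval -5.08 to 7.52) that edgeR did not call. *Khdc3* went from 0 counts in 3 libraries to 10, 18 and 31 counts, which is at least 7.55-fold higher against a floor of 3 counts per library, and at least 4.94-fold higher without the third primary library. The adjusted p = 0.424 by edgeR (quasi-likelihood) stood against 0.0334 by DESeq2, and over all alternatives it lay between 0.0334 and 0.947. *Zbed3* had a log2 fold change of 2.04 (95% interval -4.29 to 8.37), and its groups overlapped. *Nlrp5* and *Ooep* had log2 fold changes of 0.77 and 0.28, which turned to -0.31 and -0.87 without the third primary library. *Nlrp2* was above 3 counts in 1 of 3 primary libraries and in none of the primordial ones. In total, 3 of the 7 genes had *in vivo* stages that did not overlap in CPM, against 6.39% of all genes tested. Beside these values, the markers of blood, endothelium and immune cells summed to 0 to 422 TPM at the primordial stage and to 1226 to 7508 TPM at the primary stage *in vivo*. Granulosa markers summed to 24.4 to 684 and 274 to 509 TPM, theca and stroma markers to 539 to 2086 and 455 to 30457 TPM, and oocyte markers to 714 to 1203 and 654 to 1607 TPM. The part of these cells in the result was not tested.

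*In vitro*, 4 genes had a log2 fold change above 0 from primordial to primary and 3 below 0, and the median was 0.02 against 0.44 over all genes. On the log2(TPM + 1) scale all 7 were above 0, from 0.24 for *Ooep* to 2.58 for *Zbed3*, with none called by limma. edgeR called 0 members and 0% of genes, no member had an unadjusted p under 0.05 (10.9% of genes), and DESeq2 called none of them (2.94% of genes). No member had groups without overlap, against 11.2% of genes. The estimates lay between -0.75 for *Khdc3* and 0.89 for *Zbed3* with SEs of 2.76 to 3.17. These values rest on the second primordial library *in vitro*, which stands apart from its group and in which all 7 genes were above their means. Without it all 7 estimates were above 0, among them 0.47 for *Ooep*, 1.55 for *Khdc3*, 2.22 for *Padi6* and 4.21 for *Zbed3*, and none was called.

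At the primordial stage, growth *in vitro* was compared with growth *in vivo*. The log2 fold changes of the 7 genes were above 0 in edgeR, with a median of 0.98 against 0 over all genes, but those of *Nlrp5*, *Padi6* and *Zbed3* were -0.0043, -0.014 and -0.26 on the log2(TPM + 1) scale. edgeR called 0 of 7 genes and 0.0326% of all genes. *Khdc3* had an unadjusted p under 0.05, as did 11.7% of genes, and was the one member that DESeq2 called (5.3% of genes). In the same comparison DESeq2 called the granulosa marker *Amh*, with 0 counts in each *in vivo* library and 14, 28 and 4 *in vitro*, and the oocyte marker *Zp1*, with a log2 fold change of 4.56 and an adjusted p = 0.0296. No member had groups without overlap, against 6.59% of genes. *Khdc3* was 2.42 ± 3.38 CPM *in vitro* (SD, n = 3) against 0 in all *in vivo* libraries, at least 18.3-fold higher against the floor of 3 counts per library. The adjusted p = 0.362 by edgeR (quasi-likelihood) stood against 0.00815 by DESeq2, and over all alternatives it lay between 0.00815 and 0.931. Without the second *in vitro* library, which held 170 counts, the difference was at least 3.66-fold. That value rests on the third library alone, with 20 counts, as the first held 0.

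For the other genes the means *in vitro* were also carried by that library. *Padi6* was at 3.09, 42.7 and 6.63 CPM *in vitro* against 4.80 to 17.8 CPM *in vivo*, and *Zbed3* at 0.0719, 29.7 and 2.03 CPM against 1.15 to 7.94 CPM. In both genes, 1 library was above and at least 1 below the whole *in vivo* range. Without the second *in vitro* library the estimates became -1.17 for *Padi6*, -1.05 for *Nlrp5*, -0.58 for *Tle6* and -2.19 for *Zbed3*, and remained above 0 for *Ooep* at 0.38. The second *in vitro* library also had the highest summed oocyte markers of the LCM libraries at 1931 TPM, against 359 and 582 TPM in the other two of its group. Its granulosa markers were at 432 TPM, between 64.6 and 1114 TPM in the others. *In vivo* oocyte markers summed to 714 to 1203 TPM and granulosa markers to 24.4 to 684 TPM at this stage. Theca and stroma markers summed to 461 to 3524 TPM *in vitro* and 539 to 2086 TPM *in vivo*, and those of blood, endothelium and immune cells to 0 to 50.6 and 0 to 422 TPM. The part of these differences in the values of the 7 genes was not tested.

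At the primary stage, 3 genes had a log2 fold change above 0 *in vitro* against *in vivo* and 4 below 0, with a median of -0.02 against 0.44 over all genes, but *Nlrp5* and *Zbed3* were above 0 on the log2(TPM + 1) scale, at 0.15 and 0.47. edgeR called 0 members and 0% of genes. No member had an unadjusted p under 0.05 (9.66% of genes), none was called by DESeq2 (1.66% of genes), and none had groups without overlap (9.99% of genes). *Padi6* was at 22.6 ± 7.32 CPM *in vitro* and 49.9 ± 25.2 CPM *in vivo* (SD, n = 3), with a log2 fold change of -1.14 (95% interval -7.08 to 4.79). *Nlrp2* was at 0.612 ± 0.103 and 0.217 ± 0.376 CPM (SD, n = 3), with a log2 fold change of 1.48 (95% interval -4.04 to 6.99). The *in vivo* mean of *Nlrp2* rests on the 12 counts of the third library, and leaving out 1 library gave estimates of 0.90 to 6.86, the highest without that library, when the *in vivo* group held no read. *Zbed3* was nearly level, at 19.6 ± 3.20 and 19.98 ± 12.4 CPM (SD, n = 3), with an edgeR 95% interval from -6.12 to 6.07. The width of that interval draws in part on the spread of all genes. On the log2(TPM + 1) scale the 95% interval of *Zbed3* by limma was -2.63 to 3.56. Over all genes, Spearman correlations between primary libraries were 0.648 to 0.776 *in vitro* and 0.488 to 0.550 *in vivo*. Beside these values, granulosa markers summed to 728 to 2421 TPM *in vitro* and 274 to 509 TPM *in vivo*, and markers of blood, endothelium and immune cells to 0.138 to 174 and 1226 to 7508 TPM, both without overlap. DESeq2 called the haemoglobin gene *Hbb-bs* as lower *in vitro* (log2 fold change -14.88, adjusted p = 0.00455). Theca and stroma markers summed to 963 to 2158 and 455 to 30457 TPM and oocyte markers to 524 to 1054 and 654 to 1607 TPM, and the part of these cells in the result was not tested.

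The difference between these effects of culture, primary minus primordial, was below 0 for all 7 genes in edgeR, from -8.28 for *Khdc3* to -0.41 for *Ooep*, but it was above 0 on the log2(TPM + 1) scale for *Ooep*, *Nlrp5*, *Nlrp2* and *Zbed3* at 0.17, 0.15, 0.13 and 0.72. edgeR called 0 of 7 genes and 0.104% of all genes. No member had an unadjusted p under 0.05 (11.5% of genes), and DESeq2 called none (3.62% of genes). SEs were 3.39 to 4.50. The 4 LCM groups enter this and the preceding comparisons together, so their estimates are not separate pieces of evidence.

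In MII oocytes the comparison of *in vitro* with *in vivo* had far narrower intervals. edgeR called none of the 7 genes, with adjusted p between 0.512 and 0.996 (quasi-likelihood), and 0.35% of 17144 genes. No member had an unadjusted p under 0.05 (10.2% of genes), DESeq2 called none (2.05% of genes), and none had groups without overlap (16.2% of genes). *Tle6* was at 196 ± 2.66 CPM *in vitro* and 236 ± 64.3 CPM *in vivo* (SD, n = 3), with a log2 fold change of -0.27 (95% interval -0.95 to 0.42). *Padi6* was at 315 ± 158 and 522 ± 233 CPM (SD, n = 3), with a log2 fold change of -0.73 (95% interval -1.64 to 0.19). *Zbed3* was at 27090 ± 9514 and 16941 ± 9290.2 CPM (SD, n = 3), with a log2 fold change of 0.68 (95% interval -0.31 to 1.66).

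*Nlrp5*, with 400 ± 230 and 287 ± 73.2 CPM (SD, n = 3), had a log2 fold change of 0.48 (95% interval -0.47 to 1.43). *Ooep*, with 68.3 ± 33.5 and 67.5 ± 55.4 CPM (SD, n = 3), had the estimate nearest 0, at 0.02 (95% interval -1.30 to 1.34), but its interval was wider than that of *Tle6*. *Nlrp2* and *Khdc3* had log2 fold changes of -0.34 (95% interval -1.57 to 0.90) and 1.37 (95% interval -0.26 to 3.01), and that of *Khdc3* was 0.22 without the first *in vitro* library, which held 491 counts. The first *in vitro* library was the lowest of the 3 for *Nlrp2*, *Nlrp5*, *Padi6*, *Ooep* and *Tle6* in TPM and the highest for *Khdc3* and *Zbed3*. Among the 13 oocyte markers, *Ddx4*, a germ line RNA helicase, was called, at 329 ± 36.2 CPM *in vitro* and 28.0 ± 15.3 CPM *in vivo* (SD, n = 3), with a log2 fold change of 3.55 and an adjusted p = 0.00206 (edgeR, quasi-likelihood). DESeq2 also called the granulosa marker *Inhba* as higher *in vitro* (log2 fold change 7.27, adjusted p = 0.00442). It called the stroma marker *Pdgfra* as lower (-5.23, adjusted p = 0.0333). Of the 7 theca and stroma markers tested, 4 had an edgeR log2 fold change above 0 and 3 below 0. Their list summed to 2.16 to 5.18 TPM *in vitro* and 1.44 to 8.06 TPM *in vivo*. Granulosa markers summed to 30.5 to 62.6 TPM *in vitro* and 38.4 to 76.5 TPM *in vivo*. The part of these cells in the result was not tested.

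**Figure D3:**
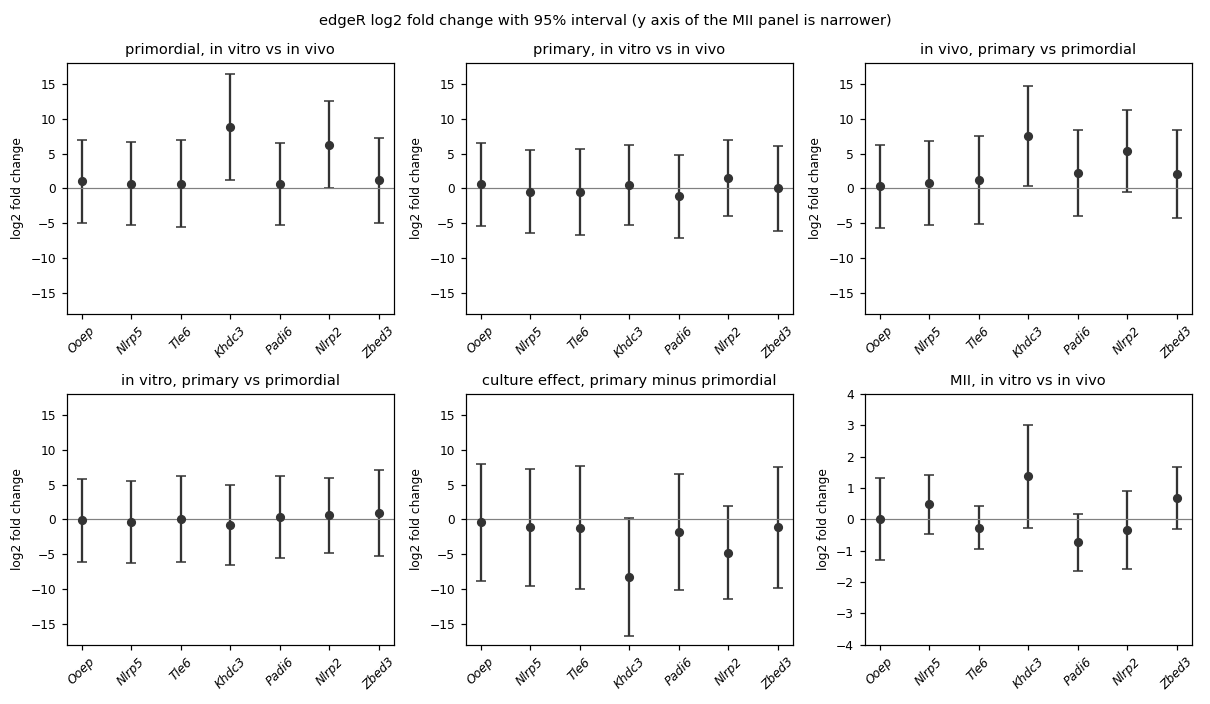
edgeR log2 fold change of each gene (points) with its 95% interval (bars) in 6 comparisons, the first group named being the numerator. Intervals span several log2 units in the 5 LCM comparisons and less in MII oocytes, where all 7 include 0.

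The 7 genes varied together over the 12 LCM libraries. Pearson correlations of log2 CPM lay between 0.304, for *Ooep* with *Zbed3*, and 0.893, for *Padi6* with *Zbed3*, with a median of 0.696 over 21 pairs. These are descriptions over 12 libraries that share total depth, scaling, oocyte content and the 4 groups. They were not repeated without the second primordial library *in vitro*. All 7 genes were above their mean in the second primordial library *in vitro*, by 1.99 log2 units on average, in the third primary library *in vivo*, by 1.68, and in the first and second primary library *in vitro*, by 0.82 and 0.88. The lowest library was the first primordial library *in vitro*, at -2.06 on average, where *Ooep* alone was above its mean. The third primordial library *in vivo* was at -1.60, with no gene above its mean.

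The genes most like the mean of the 7, among 6396 genes above 1 CPM in at least 6 LCM libraries, were *Pou2f2*, a POU domain transcription factor, at r = 0.929, *E330034G19Rik* at 0.926, *Nlrp14*, an NLR family gene of the oocyte, at 0.923, *Zar1* at 0.922, and *Slc45a3* at 0.913. The median over all these genes was 0.0834. Medians by list cover only the list genes that passed this filter. They were 0.659 for 7 partner and lattice genes, 0.437 for 10 other maternal effect genes and 0.385 for 6 granulosa markers. For 11 oocyte markers the median was 0.354, for 7 relatives of the members 0.275, for 3 regulators 0.0715 and for 7 theca and stroma markers -0.12. Values within a list spread widely, from -0.345 to 0.923 for partner and lattice genes and from -0.249 to 0.861 for oocyte markers. *Zar1* had 4, 0 and 0 counts in primordial follicles *in vivo* and 0, 2819 and 68 *in vitro*. In primary follicles it had 85, 176 and 1252 counts *in vivo* and 960, 659 and 826 *in vitro*. This order of groups and the high second primordial library *in vitro* were also those of *Khdc3*, whose own most alike gene was *Zar1* at r = 0.969. For the other members the most alike gene was *Jag2* for *Ooep* at 0.840, *Nlrp14* for *Nlrp5* at 0.896 and *Plat* for *Tle6* at 0.910. It was *Atp5g1* for *Padi6* at 0.946, *Pou2f2* for *Nlrp2* at 0.952 and *Cdc42se2* for *Zbed3* at 0.943, each over 12 libraries. *Khdc3* and *Nlrp2* were at 0 in 4 and 7 of these libraries and did not themselves pass the filter. Their correlations rest in part on which libraries held any read.

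**Figure D4:**
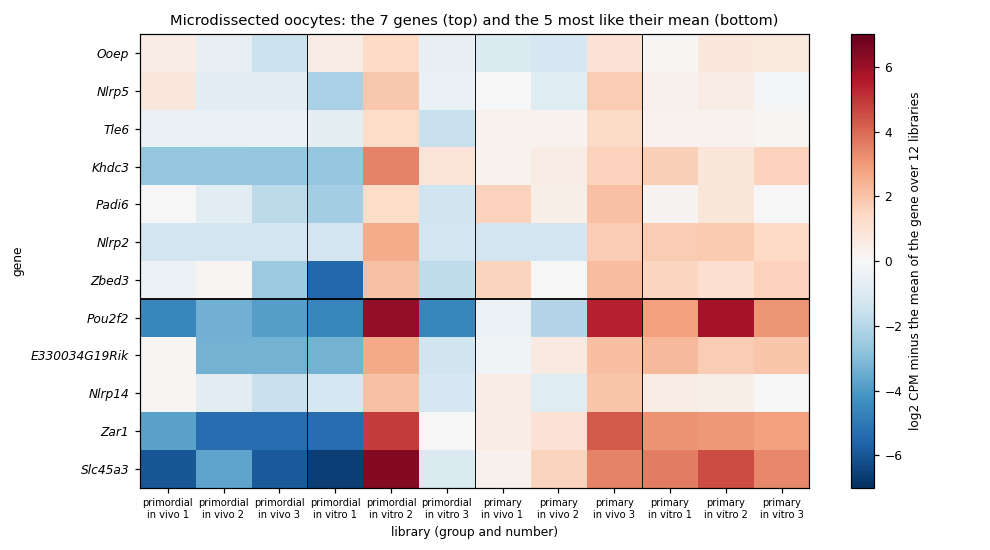
Deviation of log2 CPM from the mean of each gene over the 12 LCM libraries (columns, by group and number), for the 7 genes above the line and the 5 genes most like their mean below it. Red marks values above the mean of the gene, as for all 7 genes in the second primordial library *in vitro*.

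The make-up of the summed level without *Zbed3* was compared within libraries, which does not depend on depth. *Padi6* took 35.8% to 52.7% of the summed TPM in oocytes from primordial follicles *in vivo* and 61.2% to 77.8% in those from primary follicles *in vivo*, without overlap. *In vitro* its share was 30.1% to 43.6% at the primordial stage, with the second library included, and 48.8% to 58.3% at the primary stage. These ranges did not overlap. In MII oocytes it was 37.1% to 56.0% *in vivo* and 29.4% to 42.3% *in vitro*. *Nlrp5* took 26.1% to 39.1% at the primordial and 12.7% to 24.4% at the primary stage *in vivo*, without overlap, and 17.2% to 37.7% and 22.5% to 26.4% *in vitro*, where the stages overlapped. *Nlrp2* took at most 1.17% in an LCM library and 2.62% to 17.6% in MII libraries. Shares of a sum move against each other, and they were not tested. How often such shares do not overlap for other sets of genes was not counted. In CPM, the stages did not overlap for 6.39% of genes tested *in vivo* and 11.2% *in vitro*.

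**Figure D5:**
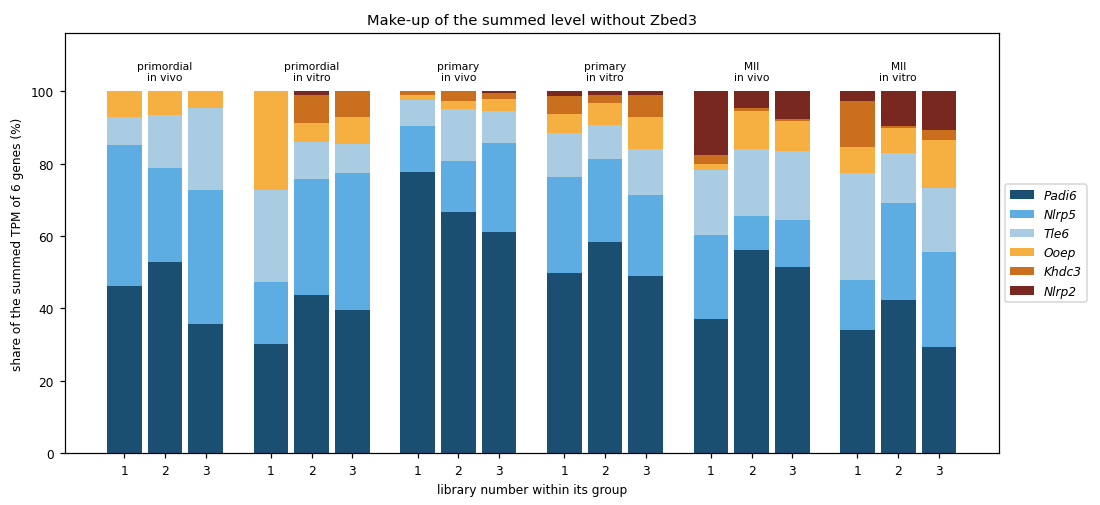
Share of each of 6 genes in their summed TPM (%), 1 bar per library, grouped by stage and growth. *Padi6* takes 61.2% to 77.8% in primary follicles *in vivo* and 35.8% to 52.7% in primordial follicles *in vivo*, and *Nlrp2* is visible mainly in MII libraries.

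Other genes of the complex and of the oocyte were taken from lists. Of 14 partner and lattice genes, 7 had over 3 counts in all 12 LCM libraries and all 14 had in the 6 MII libraries. The NLR family genes of this list had few counts in LCM oocytes. *Nlrp4f* had 8 to 76 counts in LCM and 5970 to 21866 in MII libraries, *Nlrp9c* had 0 to 10 and 2449 to 6545, and *Nlrp4a* had 0 to 48 and 4063 to 9057. *Nlrp14* had 59 to 1115 and 870 to 3162 counts. Of the 19 other maternal effect genes, 5 had over 3 counts in all LCM libraries and 19 in all MII libraries, and *Oosp2* and *Oog1* did not pass 3 counts in an LCM library. Their summed level was 193 to 1292 TPM in LCM and 75397 to 138972 TPM in MII libraries. Of 8 regulators of oocyte genes, *Figla* was at 0.158 to 5.20 TPM in LCM and 0 to 4.24 TPM in MII libraries, and *Sohlh1* at 0 to 8.64 and 0 to 0.661 TPM, so the ranges of both overlapped. Those of *Lhx8* and *Tbpl2* overlapped as well. *Nobox*, at 1.05 to 11.8 and 70.7 to 268 TPM, and *Sohlh2*, at 0 to 1.74 and 14.8 to 31.8 TPM, were higher in MII libraries without overlap. In counts, *Gtf2a1l* had 0 to 8 in LCM and 194 to 439 in MII libraries, and *Taf4b* had 0 to 1327 and 93 to 222.

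No gene of these 3 lists was called by edgeR in any of the 6 comparisons, in either direction, and between 0 and 5 genes of a list had an unadjusted p under 0.05. DESeq2 called *Taf4b* as higher *in vitro* at the primordial stage, *Trim28* as higher in primary than in primordial follicles *in vivo*, *Oog1* as higher and *Uhrf1* as lower in MII oocytes *in vitro*, and no other. For the transition *in vivo*, 2 of 14 partner and lattice genes and 5 of 17 other maternal effect genes tested had an unadjusted p under 0.05, against 11.2% of all genes, and the median log2 fold changes of the lists were 2.68 and 1.98 against 0 over all genes. At the primordial stage the medians of these lists *in vitro* against *in vivo* were 1.58 and 1.99, against 0 over all genes, and at the primary stage -0.13 and 0.50, against 0.44. In MII oocytes they were 0.32 and -0.31, against 0.04 over all genes.

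Of the partner and lattice genes with the highest mean CPM, *Ube2d3*, a ubiquitin-conjugating enzyme, had log2 fold changes *in vitro* against *in vivo* of 0.89 at the primordial and -0.15 at the primary stage, and *Ywhae*, a 14-3-3 protein, of -0.98 and -0.11. In MII oocytes *Ube2d3* was at 0.55 and *Nlrp4f* at 0.81. Among the maternal effect genes, *Smarca4*, a chromatin remodelling ATPase, was at 1.99 at the primordial and -0.97 at the primary stage and *Ctcf*, an insulator protein, at -1.36 and 1.11, while *H1f8*, the oocyte linker histone, and *Tcl1* were at -0.34 and 0.17 in MII oocytes. Among the regulators, *Lhx8* was at -2.97 at the primordial and 0.26 at the primary stage, and in MII oocytes *Nobox* was at 0.15 and *Gtf2a1l* at 0.12. None of these passed the test. *Tbpl2*, a germ line relative of the TATA-binding protein, had 3522 counts in the first primary library *in vitro* and at most 20 in the other LCM libraries.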

How the data were processed

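Reads were trimmed by the authors (Trim Galore 0.4.1) and aligned to mm10 (TopHat2), and the raw counts per gene from featureCounts were deposited without normalization. TPM, scaled by gene length and library size, were also deposited by the authors. The strand setting, the handling of reads with several positions and the gene lengths are not given in the sources used here.

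Groups came from the sample titles. Counts of genes with at least 10 counts in total were tested in R 4.3.3 with edgeR 4.0.16 (TMM, quasi-likelihood, robust), in 1 model of the 12 LCM libraries and 1 of the 6 MII libraries, with Benjamini-Hochberg adjustment over all genes tested. SEs are the log2 fold change divided by the root of the F statistic. The test was also run on simulated counts with known changes. Their spread was set below that of these data, and only genes with high counts were changed. The simulation therefore cannot show how the test performs on these libraries or on genes with few counts. The smallest p of an exact permutation test of 3 against 3 is 0.1, so none was used. Alternatives were DESeq2 1.42.0, limma 3.58.1 on the log2 of TPM plus 1 or 0.1, other size factors and filters, a replicate block, separate fits for each pair of groups, and leaving out each library. Log2 CPM for correlations used a prior count of 2.

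The 7 members and the lists of partners, regulators, other maternal effect genes, relatives and markers were chosen with earlier results of these data known. Of each list, the genes named are those called, otherwise the 2 with the highest mean CPM over the libraries of the fit. Other genes, apart from the markers and the genes most alike by correlation, were named after their values were seen. Positions come from GENCODE release M21, which matched 53620 of 53715 identifiers, and promoters from RefSeq, which held all 7 members. Where RefSeq gave several starts, the one nearest to the GENCODE start was used.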

Additional observations from a re-analysis of the deposited data

How the results depend on the processing

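No member was called under any alternative but DESeq2, which called 1 gene, *Khdc3*, at the primordial stage (*in vitro* against *in vivo*) and 1, the same gene, between stages *in vivo*. Its log2 fold changes there were 8.11 and 7.16. The cause was not tested. Of 616 log2 fold changes under alternatives, 63 changed sign, and 24 of these came from limma. With 1 and then 0.1 added to TPM, limma gave for the primordial stage -0.0043 and -0.083 (*Nlrp5*), -0.014 and -0.051 (*Padi6*) and -0.26 and -0.91 (*Zbed3*), and for the primary stage 0.15 and 0.19 (*Nlrp5*) and 0.47 and 0.49 (*Zbed3*). Between stages *in vitro* it gave 0.24 and 0.34 (*Ooep*), 0.63 and 0.77 (*Nlrp5*) and 0.28 and 1.202 (*Khdc3*). For the difference of culture effects it gave 0.17 and 0.26 (*Ooep*), 0.15 and 0.27 (*Nlrp5*), 0.13 and 0.74 (*Nlrp2*) and 0.72 and 1.40 (*Zbed3*). DESeq2 and its size factors in edgeR gave -0.20 and -0.20 for *Tle6* between stages *in vitro*. For *Ooep* in MII oocytes DESeq2 gave -0.0021, its size factors -0.0020 and filterByExpr -0.0022.

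Deviations of same-numbered libraries from their group means correlated between -0.066 and 0.090. For libraries with different numbers the range was -0.078 to 0.090. With 3 libraries per group, these correlations cannot show whether libraries of the same number share an origin. With a replicate block no member was called, and 1 sign changed, that of *Khdc3* between stages *in vitro*, to 0.11.

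Leaving out each library gave no call. Where a sign changed, estimates ranged at the primordial stage from -1.05 to 1.39 (*Nlrp5*), -0.58 to 1.09 (*Tle6*), -1.17 to 1.21 (*Padi6*) and -2.19 to 1.71 (*Zbed3*). At the primary stage they ranged from -0.89 to 0.59 (*Nlrp5*) and -0.42 to 0.48 (*Zbed3*), and between stages *in vivo* from -0.87 to 1.00 (*Ooep*) and -0.31 to 1.499 (*Nlrp5*). Between stages *in vitro* they ranged from -0.49 to 0.47 (*Ooep*), -0.89 to 1.33 (*Nlrp5*), -0.40 to 1.26 (*Tle6*), -1.33 to 1.55 (*Khdc3*) and -0.13 to 2.22 (*Padi6*). The difference of culture effects ranged from -1.13 to 0.73 (*Ooep*), -1.87 to 0.57 (*Nlrp5*), -1.66 to 0.041 (*Tle6*), -2.36 to 0.028 (*Padi6*), -5.41 to 1.48 (*Nlrp2*) and -1.73 to 2.17 (*Zbed3*). In MII oocytes the ranges were -0.47 to 0.79 (*Ooep*) and -0.77 to 0.15 (*Nlrp2*). *Nlrp2* had no estimate other than 0 at the primordial stage without the second *in vitro* library, or between stages *in vivo* without the third primary library, where both groups then held no read.

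In LCM oocytes the SEs of about 3 log2 units leave large differences of the 7 genes undetected, and fitted values of *Khdc3* and *Nlrp2* against groups at 0 depend on the prior count. These SEs draw in part on the spread of all genes. Each of the 7 genes had a within-group SD below the median of genes above 1 CPM in at least 6 LCM libraries. *Khdc3* and *Nlrp2* did not pass that filter. Both were at 0 in all 3 primordial libraries *in vivo*, so their SD there was 0.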

Other observations

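Among 21 relatives of the members, *Khdc1b*, a KH domain gene related to *Khdc3*, had 14 to 335 counts in LCM libraries and 25863 to 71386 in MII libraries, and *Khdc1a* had 0 to 55 and 191 to 570. Of the other peptidylarginine deiminase genes, *Padi3* had no read in 18 libraries, *Padi1* and *Padi4* none in the 12 LCM libraries, and *Padi2* was above 3 counts in 1 LCM library and in all 6 MII libraries. Of the Groucho relatives of *Tle6*, *Tle3* was at 0 to 50.6 TPM in LCM libraries and at 0 in all MII libraries. *Tle1* was at 0.067 to 159 and 0.346 to 1.71 TPM, *Tle2* at 0 to 9.45 and 0 to 0.238 TPM, *Tle4* at 0.904 to 555 and 5.76 to 15.3 TPM and *Tle5* at 2.14 to 102.8 and 2.03 to 30.9 TPM, so the ranges of all 5 overlapped or touched. Of the 6 NLR genes listed as relatives from outside the germ line (*Nlrp1a*, *Nlrp1b*, *Nlrp3*, *Nlrp6*, *Nlrp10* and *Nlrp12*), none had more than 1 count in any library. No relative was called by edgeR's quasi-likelihood test or by DESeq2 in the 6 comparisons, and 3 of the 11 tested in MII oocytes had an unadjusted p under 0.05, against 10.2% of all genes. *Khdc1a* was at 24.7 ± 2.63 CPM *in vitro* and 52.3 ± 12.1 CPM *in vivo* in MII oocytes (SD, n = 3), with a log2 fold change of -1.08 and an adjusted p of 0.387 in that test, and *Khdc1b* had a log2 fold change of 0.15. In LCM oocytes the most abundant relatives were *Tle4* and *Tle1*, with log2 fold changes *in vitro* against *in vivo* of -1.09 and 0.16 at the primordial and 0.57 and -1.40 at the primary stage.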
